A study of Mus musculus with 186 samples.

Results

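Inner cells of mouse embryos cultured in DMSO were divided by how much Sox2 RNA they held, and the rest of their transcriptome was compared between the classes. The classes were 15 Sox2-positive cells, with a Sox2 TPM (a transcript abundance scaled to the same total in every cell) of 10 or more, and 44 Sox2-negative cells, with a Sox2 TPM below 10. Together they were all 59 DMSO-cultured cells among the 169 cells of the whole series. The Sox2 values chose the members, so they are described without a test, and Sox2 was left out of every comparison.

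Each inner cell of the blastocyst ends up in 1 of 2 tissues. Epiblast builds the fetus itself, while primitive endoderm contributes to the yolk sac. The transcription factor SOX2 pairs with OCT4 (from Pou5f1) on neighbouring DNA sites of pluripotency genes, and in the mouse it is needed to keep the epiblast. NANOG marks the epiblast and GATA6 the primitive endoderm, and early inner cells hold RNA of both genes before they commit. The epiblast signals with FGF4, which neighbouring cells receive through FGF receptors on their way to primitive endoderm.

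All embryos were of the CD-1 strain and gave their inner cells by immunosurgery, an antibody and complement treatment that destroys the outer layer. The DMSO embryos were taken at E2.75 (days after fertilisation) and cultured for 16 hours (31 cells) or 24 hours (28 cells) in KSOM, an embryo culture medium, with the solvent DMSO. Embryos of 55 LY cells were cultured for the same times in the presence of LY294002 (LY) at 10 µM, which blocks PI3K, a lipid kinase upstream of AKT. Another 55 cells came straight from blastocysts, with 14 from E4.0, 22 from E3.75 and 19 from E3.25, with neither culture nor solvent. The cells of each culture time carry 3 date labels, each from several pooled litters, and the date served as the replicate. All 16-hour dates are later than all 24-hour dates, so culture time and collection period cannot be told apart.

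Sox2 formed a gradient in DMSO cells, with no gap at the dividing value. The 3 positive cells nearest to it had 11.78, 12.19 and 13.27 TPM, and the 3 nearest negative cells had 9.87, 9.08 and 7.74 TPM. Of the 44 negative cells, 21 held 1 to 10 TPM and 23 were below 1 TPM, so the negative class mixes cells with little and with no measured Sox2. At 16 hours the first date gave 3 cells, all positive, at 30.2, 14.6 and 12.2 TPM, so it has no negative class. The second date held 6 positive cells (lowest 13.3, highest 19.6 TPM) and 12 negative cells, and the third held 1 positive cell at 24.9 TPM and 9 negative cells. At 24 hours the first date held 3 positive cells, at 83.7, 16.2 and 13.4 TPM, and 3 negative cells, at 5.88, 0.28 and 0 TPM. The second and the third dates at 24 hours held 1 positive cell each, at 11.8 and 14.1 TPM, and 10 negative cells each. Sox2ot, a long non-coding RNA whose gene spans Sox2, was listed at 0 in 15 of 15 positive cells and did not pass 0.14 TPM in the 44 negative cells.

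**Figure D1:**
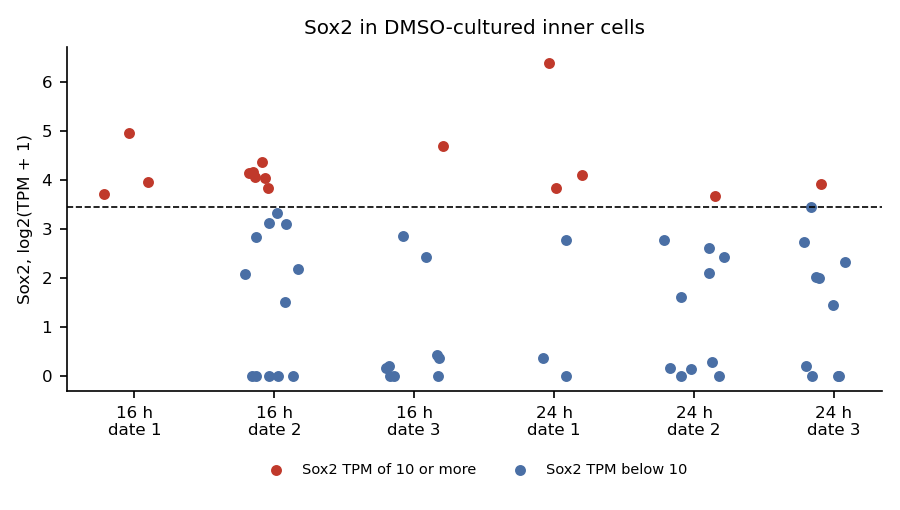
Sox2 in each DMSO-cultured cell as log2(TPM + 1), by culture time and date. The dashed line is the dividing value of 10 TPM, red points are the 15 cells at or above it and blue points the 44 cells below it. The first 16-hour date has no cell below the line.

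The positive class made up 25.4% of DMSO cells (exact 95% interval 15 to 38.4%), 36.4% of LY cells (20 of 55) and 54.5% of fresh cells (30 of 55). Within DMSO it was 32.3% at 16 hours (10 of 31) and 17.9% at 24 hours (5 of 28), with intervals of 16.7 to 51.4% and 6.06 to 36.9% that overlap. These intervals cover counting error only, and cells of 1 date are not independent.

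TPM keeps no sequencing depth, so a count of genes reaching 1 TPM stood in for it. DMSO cells had 4208 to 10220 such genes (median 7101), and the 3 cells of the first 16-hour date were the richest, at 9664 to 10220. The first 24-hour date had the lowest class means of mitochondrially encoded RNA, which made up 0.495, 1.33 and 0.527% of TPM in its positive cells and 0.362, 2.42 and 4.17% in its negative cells. Class means at the other dates lay between 2.92 and 24.7%, although single negative cells of the second and the third 24-hour dates were as low as 0.493 and 1.18%. Positive and negative cells did not differ in genes detected beyond the spread between dates. The difference was -7.62 genes over the 2 dates with at least 2 cells in each class (exact permutation p = 1.0, where the smallest possible is 0.5) and -117 ± 754 (SD, n = 5 dates) over all dates with both classes (exact permutation p = 0.688). A division at 1 TPM of Sox2 behaved differently. Cells at or above it had 758 ± 450 more genes detected (SD, n = 5 dates), in 5 of 5 dates, with an exact permutation p of 0.0625, the smallest that 5 dates can give.

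Across the transcriptome, no gene differed between Sox2-positive and Sox2-negative DMSO cells after adjustment. Of 11679 genes tested, 0 passed an adjusted p of 0.05 (0.0%), and 355 had an unadjusted p below 0.05 (3.04%), in limma on the class means of each date. Only 2 DMSO dates had at least 2 cells in each class, the second at 16 hours (6 and 12 cells) and the first at 24 hours (3 and 3). The standard errors of this fit come from LY and fresh dates, and the lone DMSO date of each culture time is assumed to vary like them. With 1 cell per class allowed, 5 DMSO dates entered, and again 0 genes passed (661 at an unadjusted p below 0.05, 5.66%). Differences below are on the log2(TPM + 1) scale, positive minus negative cells, as the mean of the 2 dates ± SE, and 5-date values are named as such. That scale understates changes of low genes.

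The pluripotency genes that work beside Sox2 were present in both classes at overlapping levels. Nanog, a homeodomain factor of the epiblast, had 30.6, 82.2 and 116 TPM (lowest, median, highest) in positive cells of the second 16-hour date, against 3.37, 53.6 and 109 TPM in its negative cells. At the first 24-hour date Nanog had 40.5, 54.3 and 178 TPM in positive cells and 122, 164 and 207 TPM in negative cells. Single positive cells of the remaining dates had 70.8, 25.9 and 304 TPM, and the last of these lay above every negative cell of its date (highest 151 TPM). The classes thus overlapped at the dates with several positive cells, and Nanog was higher in positive cells at 2 of 5 dates and lower at 3. Its difference was -0.29 ± 0.99 (adjusted p = 1.0), and 0.04 ± 0.64 over 5 dates. Pou5f1, which encodes the SOX2 partner OCT4, reached 10 TPM in 15 of 15 positive cells and in 43 of 44 negative cells. Its difference was 0.25 ± 0.69, with 4 of 5 dates higher.

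Nanog is printed with its promoter letters because, of the 21 of 30 core pluripotency and epiblast genes whose promoter was found by symbol, it was the 1 whose promoter held an octamer part beside SOX letters, the arrangement that OCT4 and SOX2 share. Zfp42 is printed because its RNA lay lower in positive cells at every date. The searched letters were ACAATG (SOX), ATGCAAAT (octamer) and TGCAT followed by any base and ACAATG (octamer part beside SOX), on both strands, from 250 bases before to 50 after each start. The sequences are from RefSeq (GRCm38.p6), each runs 5′ to 3′ along the gene's strand, and capitals mark the match.
Nanog, chr6:122707407-122707436, plus strand: agcttctttTGCATTACAATGtccatggtg
Zfp42, chr8:43307177-43307206, minus strand: tctgaagaggcATTTGCATaactgagcaag
The joined letters were in 9 of 32851 promoters (0.0274%). The Nanog match was counted from more than 1 start, at -73 and -149. The SOX letters, which the joined letters contain, were in 4129 promoters (12.6%), and in 5 of 21 list genes, namely Nanog, Pou5f1, Lin28a, Eras and Pramel7. A gene may have several promoters and counted when any of them matched, so the count of genes cannot be set against the share of promoters. The octamer letters were in 570 promoters (1.74%), among the list genes in Spp1 and Zfp42. The matches of Pou5f1, Pramel7 and Spp1 belong to starts inside the annotated gene. These are matches of letters, not sites shown to be bound. The 5 genes with SOX letters did not share a direction: their differences were -0.29 for Nanog, 0.25 for Pou5f1, -0.78 for Lin28a, 0.44 for Eras and -0.94 for Pramel7.

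Of 13 core pluripotency genes tested, 0 passed and 6 had a difference above 0, with a median of -0.08, beside a median of 0.00 over all genes tested, of which 5845 of 11679 lay above 0. Lin28a, an RNA-binding repressor of let-7 processing, had an unadjusted p of 0.0392 at -0.78 ± 0.34 and an adjusted p of 1.0. Of 20 epiblast genes, 0 passed and 10 lay above 0 (median 0.02). Fgf4 reached 10 TPM in 2 of 15 positive cells and in 10 of 44 negative cells, and its difference was -0.60 ± 0.93. All 3 positive and 2 of 3 negative cells of the first 24-hour date were listed at 0 for Fgf4. Gdf3, a TGF-beta family ligand, had a difference of 1.32 ± 0.91 and was higher at 4 of 5 dates, yet at the last date it was listed at 0 in the positive cell and averaged 4.04 on the log2(TPM + 1) scale in the negative cells. Klf2, a naive-state factor, had 0.04 ± 0.93. Zfp42 (also called Rex1), a zinc-finger marker of naive cells, was lower in positive cells at 5 of 5 dates by 0.12 to 0.85 and had -0.45 ± 1.25, but 0.30 ± 0.87 when cells were divided at 1 TPM of Sox2. Esrrb, an orphan nuclear receptor of the naive network, was higher in positive cells at 5 of 5 dates, by 0.05 to 4.61. It reached 10 TPM in 15 of 15 positive cells and in 31 of 44 negative cells, and its difference was 0.99 ± 1.10, or 1.41 ± 0.76 over 5 dates (adjusted p = 0.859). It was -0.13 when TPM was averaged before taking logs, and 1 negative cell of the second 16-hour date held 5660 TPM. Esrrb was picked after its values were seen.

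Sox2-positive cells also held RNA of Gata6, the earliest primitive endoderm factor. All 15 positive cells had at least 5.47 TPM of Gata6 (median 18.0, highest 85.2), and the 44 negative cells had 0.22 to 133 TPM (median 14.6). At the first 24-hour date Gata6 had 27.5, 34 and 85.2 TPM in positive cells and 3.92, 6.72 and 8.28 TPM in negative cells, so the classes did not overlap there. The second 16-hour date did not repeat that order, with 5.47, 13.6 and 28.5 TPM (lowest, median, highest) in positive cells and 5.64, 26.7 and 60.4 TPM in negative cells. The difference was 0.95 ± 0.90 over these dates (adjusted p = 1.0), made of -0.75 at 16 hours and 2.64 at 24 hours, and it was 0.80 ± 0.59 over 5 dates. Without the first 24-hour date it was -0.75, the 16-hour value.

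Later primitive endoderm factors were rare in both classes. Sox17, an endoderm factor of the SOX family, was listed at 0 in 10 of 15 positive cells and in 31 of 44 negative cells. It reached 10 TPM in 2 positive cells, which were the single positive cells of the second and the third 24-hour dates at 15.2 and 26.2 TPM, and in 4 negative cells. The 2-date difference of -0.39 ± 0.98 leaves those 2 cells out, and with them it was 1.23 ± 0.68 (5 dates, adjusted p = 0.859). Gata4 reached 10 TPM in 0 of 15 positive cells (a count of 0 allows up to 20.0%) and in 6 of 44 negative cells. The highest of these, at 84.3 TPM, had 9.87 TPM of Sox2, just below the dividing value. Gata4 was lower in positive cells at 5 of 5 dates (-0.84 ± 0.46 over 5 dates). Where a date had a single positive cell, that cell held only 0 or 0.12 TPM of Gata4, and 33 of all 59 cells were listed at 0. A lone cell at 0 lies below any negative mean above 0, so the direction at such dates is nearly fixed and adds little. Sox7 and Foxa2 were listed at 0 in every positive cell and each reached 10 TPM in 1 negative cell. That was the same cell for both, from the second 16-hour date, with Sox2 listed at 0. It held 31.69 TPM of Sox7, 54.84 of Foxa2, 61.49 of Gata4 and 10.79 of Sox17, together with 42.76 TPM of Nanog. Of 14 primitive endoderm transcription factors tested, 0 passed and 4 lay above 0 (median -0.14).

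Among receptors and secreted products of the primitive endoderm, some were rare and others abundant in both classes. Pdgfra, its platelet-derived growth factor receptor, reached 10 TPM in 1 of 15 positive cells and in 6 of 44 negative cells, and its difference was -0.88 ± 0.56. Amn, the membrane partner of cubilin in protein uptake, reached 10 TPM in 1 positive and 8 negative cells and was lower in positive cells at 5 of 5 dates (-1.22 ± 0.70, and -1.07 ± 0.47 over 5 dates, adjusted p = 0.859). These dates leave out the first 16-hour date, whose positive cells held 0.87, 4.16 and 13.96 TPM of Amn. Where a date had a single positive cell, that cell was listed at 0 for Amn, so it could not lie above the negative mean. Sparc, a secreted matrix glycoprotein, had -0.30 ± 0.84 over 2 dates and -1.56 ± 0.62 over 5 dates (adjusted p = 0.859). Apoe, an apolipoprotein, was higher in positive cells at 5 of 5 dates, by 0.32 to 1.60. The FGF receptor gene Fgfr1 was measured in all cells, with a median of 19.7 TPM in positive and 13.8 TPM in negative cells, and its difference was 0.18 ± 0.91. Of 25 genes of this group tested, 0 passed and 6 lay above 0 (median -0.15).

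**Figure D2:**
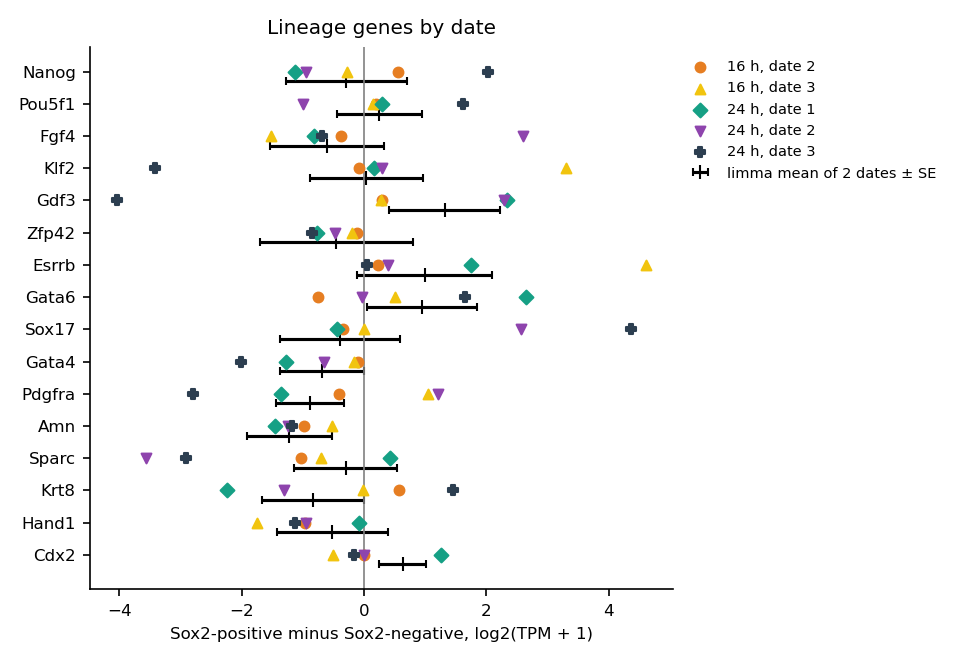
Positive minus negative cells on the log2(TPM + 1) scale for 16 lineage genes, from pluripotency (top) through primitive endoderm to trophectoderm (bottom). Coloured symbols are the 5 dates with both classes, and black bars are the limma mean of the second 16-hour and first 24-hour dates ± SE. Nanog, Gata6 and Sox17 have dates on each side of 0, while Esrrb stays above 0 and Zfp42, Gata4 and Amn stay below it. At dates with a single positive cell, that cell was at or near 0 TPM for Gata4 and Amn, so those points could hardly lie above 0.

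Nanog and Gata6 were together in most cells of either class. At a TPM of 10 or more for each, 13 of 15 positive cells (86.7%, exact 95% interval 59.5 to 98.3%) and 28 of 44 negative cells (63.6%, 47.8 to 77.6%) held both, and the intervals overlap. Without the first 16-hour date, which had no negative cells, the positive count was 11 of 12. Nanog without Gata6 was seen in 2 of 15 positive and 14 of 44 negative cells, and Gata6 without Nanog in 0 of 15 positive and 2 of 44 negative cells. No cell of either class lacked both. At 16 hours 8 of 10 positive and 15 of 21 negative cells held both, and at 24 hours 5 of 5 positive and 13 of 23 negative cells. The 24-hour counts include the first date, where Gata6 reached 10 TPM in 3 of 3 positive and 0 of 3 negative cells. Any of Sox17, Gata4 and Pdgfra at 10 TPM was found in 2 of 15 positive and 11 of 44 negative cells. Summed over 10 primitive endoderm markers, positive cells ranged from 12.5 to 87.8 TPM (median 39.5) and negative cells from 5.16 to 736 TPM (median 35.8). Summed over 8 epiblast markers, positive cells ranged from 91.2 to 1050 TPM (median 340) and negative cells from 135 to 708 TPM (median 381).

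**Figure D3:**
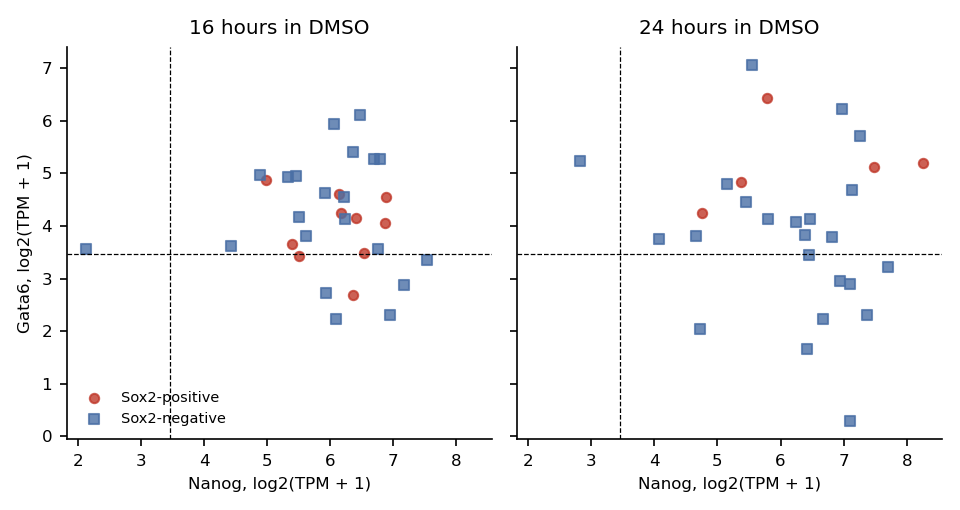
Nanog against Gata6 in each DMSO-cultured cell, both as log2(TPM + 1), at 16 hours (left) and 24 hours (right). Red circles are Sox2-positive and blue squares Sox2-negative cells, and dashed lines mark 10 TPM. Of the positive cells 13 of 15 lie in the upper right, and 14 negative cells lie in the lower right, with Nanog and little Gata6.

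Markers of the outer layer, the trophectoderm, were present in both classes although outer cells had been removed. Krt8, a simple epithelial keratin, reached 10 TPM in 14 of 15 positive and 40 of 44 negative cells. Cdx2, the defining trophectoderm factor, reached it in 1 of 15 positive and 1 of 44 negative cells, and Elf5 in 1 of 15 and 0 of 44. Summed over 8 such markers, positive cells ranged from 21.1 to 1320 TPM (median 143) and negative cells from 0.19 to 818 TPM (median 205). In the 3 positive cells of the first 16-hour date Krt8 had 733, 409 and 231 TPM, beside a highest value of 264 TPM in the other positive cells. Of 19 trophectoderm genes tested, 0 passed and 6 lay above 0 (median -0.36, and -0.29 over 5 dates). Hand1, a helix-loop-helix factor of the trophoblast, was lower in positive cells at 5 of 5 dates (-0.97 ± 0.55 over 5 dates), and Krt8 had -0.83 ± 0.83. The part of outer cells in any of these values was not tested.

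The 20 genes with the smallest p were mostly low. Only 1 of the 20 passed a filter of 1 TPM in 50% of the cells in any single group. Cck, which encodes the peptide hormone cholecystokinin, was closest to passing. At the second 16-hour date it had 60.4, 33.9 and 12.2 TPM in 3 positive cells and was listed at 0 in the other 3, and at the first 24-hour date it had 49.2 TPM in 1 positive cell and 0 in the other 2. Negative cells of these dates averaged 0.04 and 0.00 on the log2(TPM + 1) scale. The difference was 2.15 ± 0.29, with an unadjusted p of 7.42e-06 and an adjusted p of 0.0867. The other dates did not repeat it alike. At the third 16-hour date and the second 24-hour date the positive cell was listed at 0 while negative cells averaged 1.81 and 1.40, and at the third 24-hour date the positive cell held 200.4 TPM. The 5-date difference was 1.39 ± 0.67 (adjusted p = 0.859). Cck differed by 0.10 ± 0.17 in LY cells and 0.04 ± 0.18 in fresh cells.

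Of the other 19 genes with the smallest p, 9 were higher and 10 lower in positive cells, and none passed. Higher were Myo1d, an unconventional myosin (1.75 ± 0.35), H2-Aa, an MHC class II chain (1.36 ± 0.28), Icam4, an adhesion molecule (2.02 ± 0.50), Syt7, a calcium sensor of vesicle fusion (0.90 ± 0.22), Frat1, a GSK3-binding protein (1.58 ± 0.39), Abo and the unnamed loci Gm42893, Gm12446 and Gm15696. Lower were Car4, a carbonic anhydrase (-1.78 ± 0.33), Mllt3, a chromatin reader of the super elongation complex (-1.36 ± 0.32), Zfp125 (-3.35 ± 0.74), Cand2 (-1.50 ± 0.30), Ybey, Dbndd2, Prl3b1 and the unnamed loci Gm32468, Gm30124 and Gm7332. Gm42893, annotated as antisense on chromosome 3, was higher at 5 of 5 dates, by 0.55 to 3.94, and had the smallest p over 5 dates (2.31 ± 0.36, unadjusted p 4.41e-06, adjusted p = 0.0515). It passed with a pseudocount of 10 (adjusted p = 0.0325), with no filter (0.0219) and, in a setting chosen after seeing the data, when the second 16-hour date was left out of the 5 (0.0224). The SE over 5 dates draws also on LY and fresh dates. With DMSO dates alone Gm42893 had 2.31 ± 0.64 (adjusted p = 0.928). When cells were divided at 1 TPM of Sox2 its difference was 0.57 ± 0.35, and its adjusted p ranged up to 1.0 over all settings. Whether counting used strand was not stated, so reads of Gm42893 and of genes on the opposite strand cannot be told apart.

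**Figure D4:**
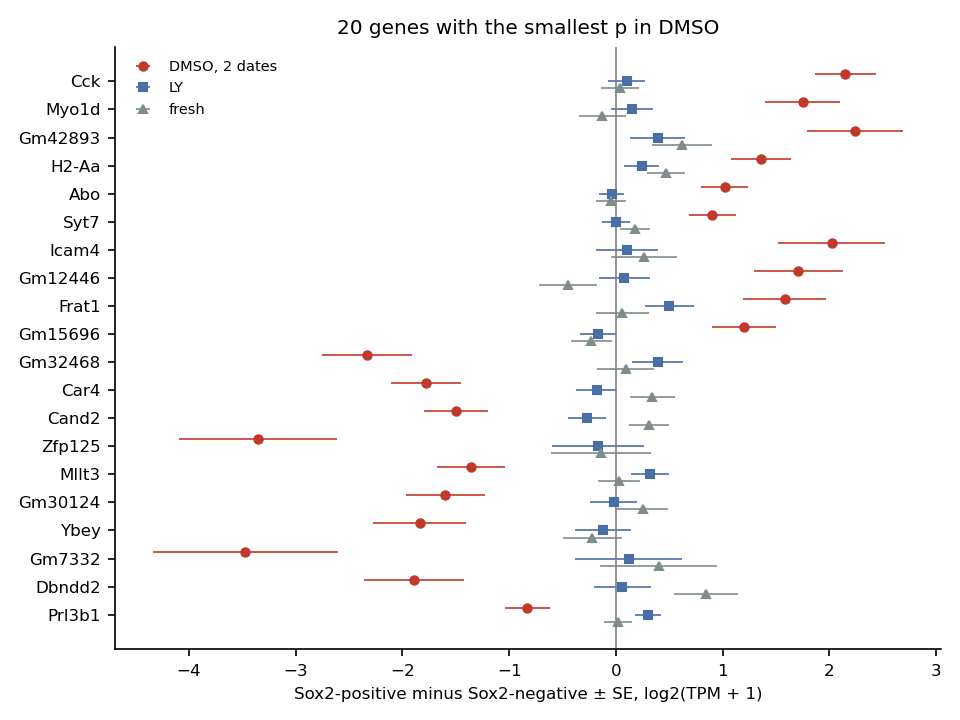
Positive minus negative cells ± SE on the log2(TPM + 1) scale for the 20 genes with the smallest p in DMSO, in DMSO (red), LY (blue) and fresh cells (grey). The genes were chosen on the DMSO values, so those are far from 0 by choice, while LY and fresh values of every gene lie between -0.45 and 0.84.

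The next smallest p-values over 5 dates belonged to Sppl2b, an intramembrane protease (3.27 ± 0.60), Gm14418 (-1.84 ± 0.34), Zscan18, a zinc-finger gene (2.92 ± 0.55), and Fbln5, an elastic fibre protein (2.06 ± 0.42), with adjusted p-values of 0.119, 0.119, 0.119 and 0.234. Each kept its direction at 5 of 5 dates, but in 3 of those dates the positive class is 1 cell. Over all genes, 231 were higher at all 5 dates (1.98%) and 501 lower (4.29%). Of the 300 list genes tested, 4 were higher at all 5 dates, which were Esrrb, Dnmt3b, Apoe and Ccnd3, and 13 were lower, among them Zfp42, Gata4, Amn, Lamc1, Runx1 and Hand1. Both counts are near the share of all genes. A single positive cell listed at 0 lies below any negative mean above 0, so a lower direction is easier to reach for genes with many zeros. How much this adds to the lower counts was not tested. Dnmt3b, a de novo DNA methyltransferase that rises as epiblast cells leave the naive state, had 1.75 ± 0.89 over 2 dates and 1.19 ± 0.61 over 5 dates (adjusted p = 0.859).

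Signalling, growth and housekeeping groups had 0 genes past the threshold in each of the remaining 15 lists. Apoptosis and p53 genes had the highest median, 0.86 over 2 dates (13 of 20 above 0) and 0.15 over 5 dates, and at the first 24-hour date alone it was 1.87. Bcl2l11, which encodes the pro-apoptotic protein BIM, had 3.04 ± 0.90 (adjusted p = 1.0), made of 1.29 at 16 hours and 4.78 at 24 hours, and 0.85 ± 0.77 over 5 dates. PI3K and AKT genes had a median of 0.47 over 2 dates (15 of 19 above 0) and 0.12 over 5 dates. Cell cycle genes had -0.43 (10 of 26 above 0) and -0.32 over 5 dates, with Ccne1, the G1/S cyclin E1, at -2.11 ± 0.97 and Cdc20, an activator of mitotic exit, at 1.53 ± 0.79. Slc2a1, the glucose transporter GLUT1, had 2.83 ± 1.00, in a glycolysis list with a median of -0.16. Of 13 mitochondrially encoded genes 0 lay above 0 (median -0.50, and -0.02 over 5 dates), at dates that include the 24-hour one with the lowest mean mitochondrial share. FGF and ERK target genes (median -0.05), NODAL genes (0.03), BMP and ID genes (0.05) and LIF and STAT3 genes (0.18) lay near the all-gene median. So did naive pluripotency genes (0.11), Hippo and YAP genes (-0.07), formative genes (-0.07), other SOX genes (-0.10) and ribosomal protein genes (0.08), while DNA methylation genes had 0.53 with 5 of 9 above 0.

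**Figure D5:**
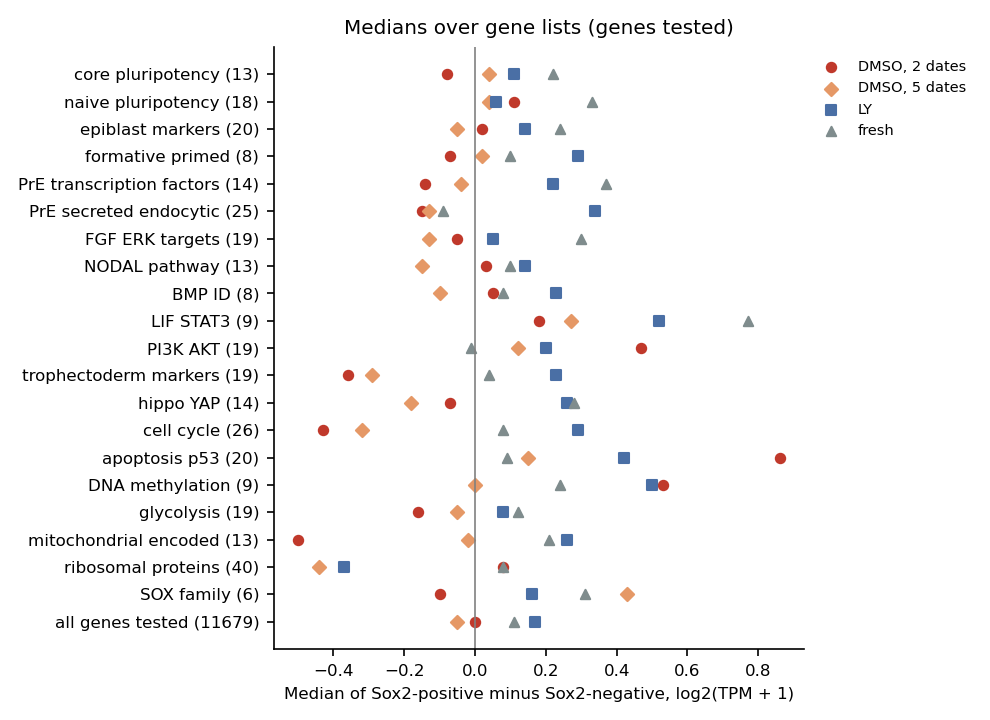
Median difference of each of 20 gene lists, positive minus negative cells on the log2(TPM + 1) scale, with the number of tested genes in parentheses. Red circles are DMSO over 2 dates, orange diamonds DMSO over 5 dates, blue squares LY and grey triangles fresh cells, and the last line gives the median of all genes. The list furthest from 0 over 2 dates, apoptosis and p53 at 0.86, lies at 0.15 over 5 dates.

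Each culture time taken alone rests on 1 date when at least 2 cells per class are asked for. At 16 hours 0 of 11679 genes passed (0.0%, with 90 at an unadjusted p below 0.05, 0.771%). At 24 hours 2 passed (0.0171%, with 822 at an unadjusted p below 0.05, 7.04%). Abo, a blood group glycosyltransferase, averaged 2.46 on the log2(TPM + 1) scale in the 3 positive cells and was listed at 0 in the 3 negative cells (adjusted p = 0.0298). Gm32468, a long non-coding RNA, was listed at 0 in the 3 positive cells and averaged 4.54 on that scale in the negative cells (adjusted p = 0.0298). With all 24-hour dates in the fit neither passed. Gm42893 was the 1 gene that passed there (0.00856%, with 1032 at an unadjusted p below 0.05, 8.84%), at 3.03 ± 0.47 (adjusted p = 0.0402). With DMSO dates alone in that fit 0 genes passed. Over 5 dates Abo had 0.27 ± 0.28 and Gm32468 -0.57 ± 0.62. The effect of Sox2 class differed between 24 and 16 hours for 0 genes (0.0%, with 363 at an unadjusted p below 0.05, 3.11%). The smallest p for that difference, besides Abo and Gm32468, was that of Gdf9, an oocyte growth factor, at -4.31 ± 0.71 (adjusted p = 0.288), followed by Acer1 and Mypop. Gata6 had 3.39 ± 1.79 for the same difference (adjusted p = 1.0).

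The same division in cells that the selection did not use, the LY and the fresh ones, also gave 0 genes past the threshold. LY cells had 887 genes at an unadjusted p below 0.05 (7.59%) and fresh cells 581 (4.97%). All-gene medians were 0.00 in DMSO, 0.17 in LY and 0.11 in fresh cells, and the LY median was 0.01 after quantile normalization, so LY and fresh values are read against them. Sox17 had -0.39 ± 0.98 in DMSO cells, 0.12 ± 0.57 in LY cells and 2.17 ± 0.62 in fresh cells, the last with an unadjusted p of 0.00424 and an adjusted p of 0.984, higher at 5 of 6 fresh dates. The DMSO value leaves out the 2 positive cells with Sox17 above 10 TPM. With 1 cell per class allowed, Sox17 had 1.23 ± 0.68 in DMSO, 0.12 ± 0.62 in LY and 1.84 ± 0.62 in fresh cells. Klf2 had 0.04 ± 0.93 in DMSO, -0.35 ± 0.54 in LY and 1.68 ± 0.59 in fresh cells. Il6st, the gp130 receptor subunit of LIF signalling, had 0.66 ± 0.66, 0.40 ± 0.38 and 1.48 ± 0.42 in the same order. Gata6 had 0.95 ± 0.90 in DMSO, 0.84 ± 0.52 in LY and 0.59 ± 0.57 in fresh cells. Primitive endoderm factors had list medians of -0.14 in DMSO, 0.22 in LY and 0.37 in fresh cells, and trophectoderm genes -0.36, 0.23 and 0.04. Tead2, a partner of YAP in transcription, had -1.10 ± 0.85 in DMSO, 1.5 ± 0.49 in LY and 1.23 ± 0.54 in fresh cells, and DMSO minus LY was -2.60 ± 0.99 (unadjusted p 0.0214, adjusted p = 1.0). The effect of Sox2 class differed between DMSO and LY for 0 genes (0.0%, with 386 at an unadjusted p below 0.05, 3.31%) and between DMSO and fresh for 0 genes (0.0%, with 342, 2.93%).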

How the data were processed

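Single cells were profiled with a polyA protocol that primes from the 3' end, and 170 of the 186 labelled samples were analysed here, as 169 cells after averaging a pair of E3.25 columns whose names share a stem and that correlated at 0.824, above 0.783 with any other cell. A like-named LY pair of 24 hours correlated at 0.594, below 0.724 with another cell, and was kept as 2 cells. The authors deposited TPM values for 55421 genes and 92 spike-ins. The submitters' processing notes list RSEM 1.3.3, STAR 2.7.9a, bcl2fastq 2.20.0 and cutadapt 2.9, and the mm10 build. TPM keeps no depth, so count models could not be used, and intervals for shares cover counting error only.

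Genes entered if they reached 1 TPM in at least 25% of the cells of any single group (11679 genes). A group was a culture time with its treatment, or a fresh stage. Log2(TPM + 1) of these genes was averaged per Sox2 class within each date, with at least 2 cells per class. The means were tested with limma 3.58.1 (R 4.3.3), with date within group as a block, 1 class effect per group and a mean-variance trend. Benjamini-Hochberg adjustment ran over all genes at 0.05. The code was tested on simulated data. The fit held 13 combinations of group and date, 2 of them DMSO, and 6 residual degrees of freedom. Both DMSO dates also gave LY cells, and the tests of DMSO minus LY did not use this sharing. The pairing of the classes comes from the shared date label. Deviations of the classes of 1 date correlated at 0.361 and 0.326 in the 2 DMSO dates of this fit. At the other dates of the 5-date fit they correlated at 0.308 (the third, 16 hours), 0.0754 and 0.152 (the second and the third, 24 hours), the last 2 below their highest with another date (0.197 and 0.209). Whether dates are independent beyond separate pooled litters is not stated, so p-values measure the spread between dates. In the main fit that is the spread of LY and fresh dates, since each DMSO culture time has 1 date.

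Members and gene lists were chosen with earlier results of these data known. Genes named were those of the pluripotency, endoderm and trophectoderm lists, the 10 with the smallest p in each direction, 4 of each other list and the 5 with the smallest p between culture times. Genes with 1 direction at all dates or a small p over 5 dates or in LY or fresh cells were added after their values were seen. Alternatives were another Sox2 division, fewer cells per class, weights, pseudocounts, filters, scaling, runs, no block, and leaving out dates.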

Additional observations from a re-analysis of the deposited data

Results flagged for a closer look

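The closer look took the 6 Sox2-positive cells of the second 16-hour date and the 9 Sox2-negative cells of the third. It also took the 10 Sox2-negative cells of each of the second and the third 24-hour dates. Smaller and larger sets were left out. Each of several measures was examined within each of these sets, 32 combinations in all. In 5 of them, from 3 sets of cells, 1 cell lay further from the rest than Dixon's 95% criterion allows. For normally distributed values chance gives about 1 in 20, or 1.6 of 32. Values with many zeros are not of that kind, so the 5 cannot be read as an excess. Pou5f1 had its lowest value, 11.99 TPM, in a Sox2-positive cell of the second 16-hour date. Nanog had its lowest value among Sox2-negative cells of the third 16-hour date at 20.48 TPM, and Pdgfra had its highest there at 3.07 TPM. The other cells of that set had 0 or 0.03 TPM of Pdgfra. Among Sox2-negative cells of the second 24-hour date, 1 cell had a mitochondrial share of 26.3% and 1 cell had 0.16 TPM of Krt8. No cause was tested.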

How the results depend on the processing

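Over both culture times the count of 0 genes became 5 with a pseudocount of 10, 1 with no replicate block and 2532 with no filter. Of those 2532, 2477 fail the filter and 2360 reach 1 TPM in at most 5 cells. Leaving out dates gave 0 to 2. At 16 hours, 0 became 3 with weights by cell number, 1 with log2 of the mean TPM, 1 with a pseudocount of 10, 2443 with no filter, 1 in run 2 alone and 1 with weights and 1 cell per class. Leaving out dates gave 0 to 34, the highest without the second 16-hour date. At 24 hours, 2 became 1 with 1 cell per class, 32 with a pseudocount of 10, 478 with no filter, 18 in run 2 alone, and 0 with a Sox2 division at 1 TPM, weights (also with 1 cell per class), log2 of the mean TPM, a pseudocount of 0.1, a filter at 50% of cells, genes detected as covariate, run 1 alone, or DMSO dates alone. Leaving out dates gave 0 to 8, with 8 without the first, 7 without the second and 0 without the third 24-hour date. The 24 minus 16 hour count of 0 became 3 with log2 of the mean TPM, 11 with a pseudocount of 10 and 2511 with no filter, and 0 to 20 on leaving out dates. Fresh cells gave 2 at a Sox2 division of 1 TPM, 2 with a pseudocount of 10 and 1225 with no filter. With no filter DMSO minus LY gave 2350 and DMSO minus fresh 3108, and leaving out dates gave 0 to 2 for DMSO minus LY. LY cells gave 0 under every setting run.

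The difference in genes detected turned to 758.0 at a Sox2 division of 1 TPM, 303.0 at 20 TPM and 169.0 without the first 24-hour date, and was -185.0 without the second 16-hour date. That in mitochondrial share turned to 1.91 at 1 TPM, 5.44 at 20 TPM and 3.54 over 5 dates, and that in spike-in share to 0.00485 at 20 TPM. At 20 TPM 100% of positive cells (3 of 3) held Nanog and Gata6. The causes were not tested. Of 177 named genes, 54 changed sign in run 1 alone, 52 at a Sox2 division of 1 TPM, 46 without the first 24-hour date, 43 with 1 cell per class and 8 with quantile normalization. The most was 66, with 1 cell per class and without the first 24-hour date. Fits with 1 cell per class that leave out a date, use weights or use DMSO dates alone were chosen after seeing the data. A division at 20 TPM with 2 cells per class, and DMSO dates alone with 2 cells per class, could not be fitted. Depth is unknown, and few positive cells and dates limit what could be detected.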
